A study of Mus musculus with 9 samples.

Results

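The genes described here are 37 named genes of the response to low oxygen and of sugar breakdown, out of 18194 genes represented on the arrays. The list is a set of gene names with no cut on a measured value, it was chosen with earlier results of these data known, and it was split into 21 genes of glucose uptake, glycolysis and lactate handling, 13 other genes that low oxygen is known to induce, and 3 genes of the oxygen-sensing machinery itself (Hif1a, Epas1 and Vhl). Each gene was read by its brightest probe set among those annotated to it alone, which gave a value for 34 of the 37, namely 19, 12 and 3 of these groups. Gpi1, Eno1 and Bnip3l have no value here, since no probe set was matched to the first pair alone and those of Bnip3l are shared with Bnip3l-ps. The gene listed as Ero1l carries the current symbol Ero1a.

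The tumours came from 67NR, 66cl4 and 4T1, 3 lines of mouse mammary carcinoma cells, which are used as a series from a line that does not spread to lines that do. Female BALB/c mice aged 7 to 9 weeks were given 1000000 viable cells of 67NR/CMVLUC, 66cl4/CMVLUC or 4T1/CMVLUC in the fourth mammary gland of the right side, 3 mice for each line, and all groups carry the CMVLUC part of the name. Primary tumours were taken on day 15, the tumour part of sections was cut out by laser capture, and its total RNA was put on 1 single-colour Affymetrix array per mouse. Each line stands for 1 tumour model, no uninjected gland is among the 9 arrays, and captured tissue holds host cells beside the injected ones. Values are log2 signals as deposited, so a difference of 1 is a 2-fold change in signal, and levels are not compared between genes because each probe set has its own response.

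Cells sense oxygen through the HIF transcription factors. When oxygen is plentiful, prolyl hydroxylases of the Egln family mark the HIF alpha subunits, encoded by Hif1a and Epas1, and the ubiquitin ligase component Vhl has them destroyed; when oxygen is scarce the subunits persist, pair with Arnt and bind a short DNA core in or near their target genes. Targets include most enzymes that turn glucose into lactate, the glucose and lactate carriers, genes that remove mitochondria or stiffen collagen, and the prolyl hydroxylases themselves, and such genes are known to be raised in poorly perfused parts of solid tumours. The arrays measure transcripts, and oxygen, HIF protein and glucose consumption were not analysed here.

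Promoter sequences are shown for 4 of the members. They are the glycolytic enzyme genes Pgk1 and Ldha, which were higher in both 66cl4 and 4T1, the mitophagy gene Bnip3, with the same pattern, and Egln3, which was high in 4T1 alone. Each is the 250 bases before the annotated start, 5′ to 3′ in the direction of the gene, from RefSeq on GRCm38.p6, and Ldha is shown by the first of its 2 listed windows. Capitals mark ACGTG and GCGTG, the core that HIF binds, in either orientation (CACGT and CACGC on the opposite strand), and CACGTG is ACGTG and CACGT in overlap.
Pgk1, chrX:106186850-106187099, plus strand: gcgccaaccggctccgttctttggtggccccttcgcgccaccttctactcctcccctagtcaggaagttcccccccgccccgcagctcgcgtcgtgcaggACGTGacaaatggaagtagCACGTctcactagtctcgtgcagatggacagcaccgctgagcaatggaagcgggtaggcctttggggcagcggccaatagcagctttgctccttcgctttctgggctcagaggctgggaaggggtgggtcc
Ldha, chr7:46845554-46845803, plus strand: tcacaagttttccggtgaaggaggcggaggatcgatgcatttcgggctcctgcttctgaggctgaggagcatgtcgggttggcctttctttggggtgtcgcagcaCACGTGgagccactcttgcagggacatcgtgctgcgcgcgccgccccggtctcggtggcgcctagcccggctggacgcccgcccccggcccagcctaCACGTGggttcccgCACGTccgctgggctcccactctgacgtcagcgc
Bnip3, chr7:138909507-138909756, minus strand: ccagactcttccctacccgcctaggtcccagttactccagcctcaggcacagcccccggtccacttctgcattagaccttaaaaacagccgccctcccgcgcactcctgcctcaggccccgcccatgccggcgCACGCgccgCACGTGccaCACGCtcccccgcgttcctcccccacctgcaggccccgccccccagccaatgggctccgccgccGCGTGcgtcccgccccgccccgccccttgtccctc
Egln3, chr12:54203875-54204124, minus strand: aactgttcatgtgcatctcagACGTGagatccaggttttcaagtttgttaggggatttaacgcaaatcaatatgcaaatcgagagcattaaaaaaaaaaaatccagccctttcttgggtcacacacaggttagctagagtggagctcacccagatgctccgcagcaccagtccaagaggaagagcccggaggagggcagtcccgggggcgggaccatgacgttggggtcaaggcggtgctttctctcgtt
Of the 31 members with an entry, 20 held ACGTG in either orientation within their 250-base windows (64.5%), against 24.2% of the 10755 tested genes with an entry and 18.5% of all 27025 genes with one. GCGTG was found for 20 members as well (64.5%), against 47.4% of tested genes. Among hypoxia-induced members 9 of 11 held ACGTG, and among glycolysis members 10 of 18. All 4 printed windows hold ACGTG in either orientation, while the second Ldha window holds CACGC alone. Other members with higher signals in 4T1 do not: the Aldoc windows hold GCGTG or CACGC without ACGTG, and those of Eno2 and Tpi1 hold no core. A gene counts here if any of its windows holds the core. By window, ACGTG was in 52.2% of 46 for members and 20.8% of 13733 for tested genes. The members were listed for known ties to low oxygen or glycolysis, so these shares are no test. These counts describe letters in a window, no binding was measured, and a core outside the window was not looked for.

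Of the 19 measured glycolysis members, 14 were higher and 2 lower in 4T1 than in 67NR (Hk1 and Pfkm), at a limma adjusted p under 0.05 over all 13410 genes tested. This threshold was passed by 39.9% of all genes in that comparison, 19.4% higher and 20.5% lower, and by 84.2% of the glycolysis members. Their median log2 difference was 1.01, beside -0.03 over all genes tested. Between 66cl4 and 67NR, 6 of the 19 were higher and 3 lower, where 36.1% of all genes passed (20.0% higher and 16.0% lower), with a median of 0.28 beside 0.01. Between 4T1 and 66cl4, 11 were higher and none lower by this limma test, nor at an unadjusted p under 0.05, where 41.3% of all genes passed (17.9% higher and 23.4% lower), with a median of 0.45 beside -0.03. The 3 comparisons share their arrays in pairs and are not independent, so each gene is given by its own values. The standard error (SE) of a gene's difference is the same in all 3, since each line has 3 mice. The brightest probe sets of Aldoa, Tpi1 and Adm, and those of Slc2a3 and Ndrg1, are of types that can read near-identical transcripts, and processed copies of glycolytic genes are common in mouse, so these signals may include such copies.

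**Figure D1:**
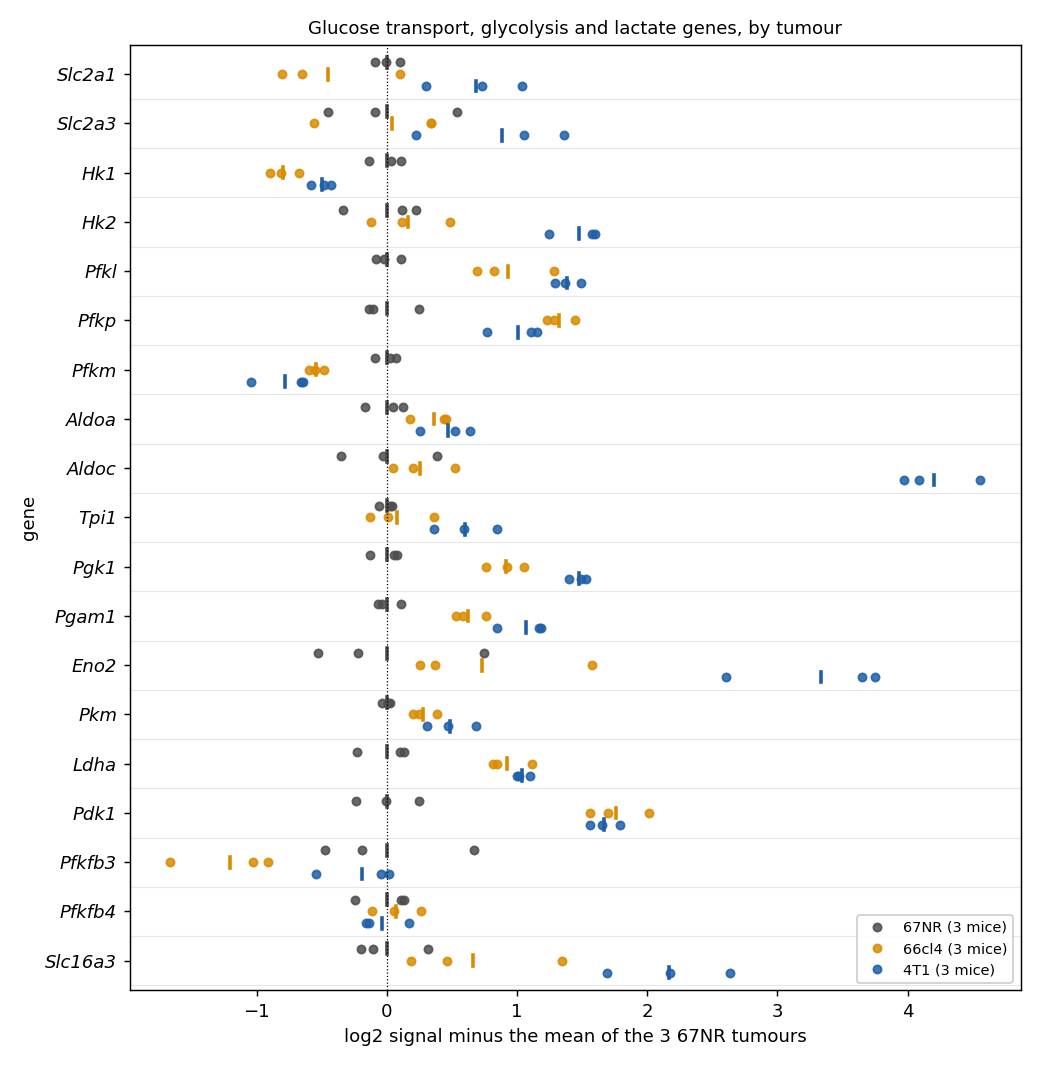
Each point is 1 tumour, placed by its log2 signal minus the mean of the 3 67NR tumours (horizontal axis), for the 19 glycolysis members (vertical axis), and short bars are line means. The 4T1 points of Aldoc lie near 4 and those of Eno2 near 3, whereas for Pdk1 and Ldha the 66cl4 and 4T1 points lie together to the right of 67NR.

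Glucose enters through carriers of the Slc2a family and is trapped by hexokinases, and here the carrier and the inducible hexokinase were highest in 4T1. Slc2a1, encoding the widespread carrier GLUT1, had log2 signals of 10.61, 10.72 and 10.53 in 67NR, 9.97, 10.72 and 9.82 in 66cl4, and 10.92, 11.35 and 11.66 in 4T1 tumours. All 3 4T1 values lay above every other value, by 1.14 ± 0.24 over 66cl4 (SE, adjusted p = 0.00437) and by 0.69 over 67NR (adjusted p = 0.0475). The second call was lost on leaving out any 67NR array, 66cl4 replicate 1 or 4T1 replicate 2 or 3 (adjusted p between 0.0583 and 0.145). It was also lost with quantile normalization (adjusted p = 0.051) and with no filter on dim probe sets (adjusted p = 0.0562). In a separate fit of all probe sets together, both dimmer Slc2a1 probe sets were called higher in 4T1 than in 67NR (0.79 and 1.14). The brightest missed the threshold there (adjusted p = 0.0504). Slc2a3, encoding the high-affinity carrier GLUT3, had a mean of 7.45 ± 0.59 in 4T1 against 6.57 ± 0.50 in 67NR (SD, n = 3) and was called in no comparison. It was called higher in 4T1 than in 67NR without 67NR replicate 1 (1.15, adjusted p = 0.0407) or 4T1 replicate 1 (1.21, adjusted p = 0.0199), and than in 66cl4 without 4T1 replicate 1 (1.17, adjusted p = 0.0219).

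Hk2, the inducible hexokinase, had signals of 9.06, 8.95 and 8.49 in 67NR, 8.95, 9.32 and 8.71 in 66cl4, and 10.08, 10.43 and 10.41 in 4T1 tumours. The 4T1 values stood clear of both other lines, which overlapped. It was 2.78-fold higher in 4T1 than in 67NR (log2 difference 1.47 ± 0.19, adjusted p = 0.000257) and 2.49-fold higher than in 66cl4 (adjusted p = 0.000498). Hk1, the hexokinase of most resting tissues, ran the other way, with 11.00, 11.08 and 10.83 in 67NR, 10.16, 10.29 and 10.07 in 66cl4, and 10.39, 10.49 and 10.54 in 4T1 tumours. It was lower than in 67NR in both 66cl4 (-0.80 ± 0.11, adjusted p = 0.000386) and 4T1 (-0.50, adjusted p = 0.00469). Its call between 4T1 and 66cl4 (0.30, adjusted p = 0.0489) was lost without any of 6 single arrays (67NR replicates 1 and 2, 66cl4 replicates 1 and 3, 4T1 replicates 2 and 3; adjusted p between 0.0592 and 0.153).

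Phosphofructokinase, the committing step of glycolysis, is built from liver (Pfkl), platelet (Pfkp) and muscle (Pfkm) type subunits, and their transcripts did not move as one. Pfkl had 10.10, 9.96 and 9.90 in 67NR, 10.81, 11.27 and 10.68 in 66cl4, and 11.48, 11.36 and 11.28 in 4T1 tumours. It was higher than in 67NR by 0.93 ± 0.15 in 66cl4 (adjusted p = 0.00112) and by 1.39 in 4T1 (adjusted p = 8.03e-05). A second Pfkl probe set was also called higher in 66cl4 than in 67NR (0.80, adjusted p = 0.00138). The dimmest, with a mean of 5.57 in 67NR, is the only one left when types that can read related transcripts are left out. On it the 66cl4 difference was 0.30 (adjusted p = 0.279). Pfkp had 9.04, 8.69 and 8.66 in 67NR, 10.08, 10.24 and 10.03 in 66cl4, and 9.56, 9.95 and 9.90 in 4T1 tumours. Here the 66cl4 values were the highest, 1.32 ± 0.14 above 67NR (adjusted p = 0.000112), and the 4T1 values were 1.01 above 67NR (adjusted p = 0.000444). The gap between 4T1 and 66cl4 was not called for Pfkp (-0.31, adjusted p = 0.115) and was called for Pfkl (0.45, adjusted p = 0.0364), but for Pfkl it missed the threshold without 67NR replicate 2, 66cl4 replicates 1 or 3 or 4T1 replicates 1 or 2 (adjusted p between 0.0543 and 0.129). Pfkm was lower than in 67NR in both, by -0.54 ± 0.12 in 66cl4 (adjusted p = 0.00714) and -0.78 in 4T1 (adjusted p = 0.000795), with all 66cl4 and 4T1 values below the lowest 67NR value.

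Aldolase splits the sugar, and its isoform genes Aldoc and Aldoa gave very unlike differences. Aldoc, the isoform named for brain, had signals of 5.25, 4.93 and 5.67 in 67NR, 5.49, 5.81 and 5.33 in 66cl4, and 9.84, 9.26 and 9.37 in 4T1 tumours. The 67NR and 66cl4 values overlapped just above background, and those of 4T1 were 18.4-fold above 67NR (4.21 ± 0.22, adjusted p = 6.69e-07) and 15.4-fold above 66cl4 (3.95, adjusted p = 8.67e-07). With all probe sets of a gene averaged, these Aldoc differences were 2.62 (6.14-fold, adjusted p = 2.43e-06) and 2.58 (5.98-fold, adjusted p = 2.22e-06). Aldoa, the general isoform, was bright in all lines, at 12.08 ± 0.15 in 67NR, 12.44 ± 0.15 in 66cl4 and 12.55 ± 0.20 in 4T1 (SD, n = 3). Its 0.47 ± 0.14 between 4T1 and 67NR passed (adjusted p = 0.0201) but not without 67NR replicate 3, 4T1 replicate 2 or 4T1 replicate 3 (adjusted p between 0.0594 and 0.0767). Of the other Aldoa probe sets, 2 were called higher in 4T1 than in 67NR and 2 were not (adjusted p = 0.0568 and 0.0684).

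The later steps, which yield the ATP of glycolysis, were highest in 4T1 with 66cl4 in between for several enzymes. Pgk1, phosphoglycerate kinase, had 11.79, 11.59 and 11.77 in 67NR, 12.48, 12.77 and 12.64 in 66cl4, and 13.12, 13.24 and 13.20 in 4T1 tumours. The lines formed 3 separate steps, 1.88-fold from 67NR to 66cl4 (0.91 ± 0.11, adjusted p = 0.000195) and 1.47-fold from 66cl4 to 4T1 (0.56, adjusted p = 0.0028). Both dimmer Pgk1 probe sets were called higher in 66cl4 than in 67NR (0.99 and 0.89). Between 4T1 and 66cl4 they gave 0.28, which was not called (adjusted p = 0.118), and 0.39 (adjusted p = 0.0458). Pgam1, phosphoglycerate mutase, formed the same steps, with 10.79 to 10.96 in 67NR, 11.39 to 11.62 in 66cl4 and 11.71 to 12.04 in 4T1. Its differences from 67NR were 0.63 ± 0.12 in 66cl4 (adjusted p = 0.00308) and 1.07 in 4T1 (adjusted p = 0.000106), while the 0.44 between 4T1 and 66cl4 (adjusted p = 0.0162) missed the threshold without 66cl4 replicate 1, 66cl4 replicate 3 or 4T1 replicate 2 (adjusted p between 0.0515 and 0.059).

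Tpi1, triosephosphate isomerase, was higher in 4T1 than in 67NR by 0.60 ± 0.16 (adjusted p = 0.0118), and 66cl4 differed from 67NR by 0.08 (adjusted p = 0.732). Its 0.52 between 4T1 and 66cl4 (adjusted p = 0.0227) missed the threshold without 66cl4 replicates 1 or 3 or 4T1 replicates 2 or 3 (adjusted p between 0.0526 and 0.0843). Of the other Tpi1 probe sets, 1 was called higher in 4T1 than in 67NR (0.72) and 66cl4 (0.63). Another was called in neither (0.49, adjusted p = 0.0869, and 0.49, adjusted p = 0.0862). Eno2, the enolase named for neurons, had signals of 4.94, 3.97 and 3.67 in 67NR, 4.57, 5.77 and 4.45 in 66cl4, and 6.80, 7.95 and 7.84 in 4T1 tumours. Only 1 of 3 arrays lay above background in 67NR and in 66cl4, so the 4T1 mean of 7.53 is given as a bound, at least 5.99-fold above 67NR (measured mean 4.19, adjusted p of the fit = 0.000291) and at least 5.09-fold above 66cl4 (measured mean 4.93, adjusted p of the fit = 0.00124). The bound sets each array of the dimmer line at the higher of its own signal and background, which is the highest of 27 bacterial control probe sets on that array. Eno2 passed the filter of the 40th percentile on at least 3 arrays only through its 4T1 signals, and it was tested for that reason alone. Its calls stayed when no filter was used. The other 33 members were above background on all 9 arrays. Pkm, pyruvate kinase, was higher in 4T1 than in 67NR by 0.49 ± 0.11 (adjusted p = 0.00725), with 66cl4 at 0.28 from 67NR (adjusted p = 0.087). Under 3 alternatives Pkm was called higher in 66cl4 than in 67NR (adjusted p between 0.0433 and 0.0468).

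What becomes of pyruvate separated the lines differently. Ldha, which reduces pyruvate to lactate, had 11.57, 11.24 and 11.61 in 67NR, 12.32, 12.59 and 12.29 in 66cl4, and 12.47, 12.49 and 12.57 in 4T1 tumours. The 66cl4 and 4T1 values overlapped and both lay above 67NR, by 0.92 ± 0.13 (adjusted p = 0.000462) and 1.04 (adjusted p = 0.000183). Pdk1, a kinase that shuts off pyruvate dehydrogenase and so keeps pyruvate out of mitochondria, had 6.81, 6.33 and 6.56 in 67NR, 8.27, 8.58 and 8.12 in 66cl4, and 8.35, 8.22 and 8.12 in 4T1 tumours. It was 3.38-fold over 67NR in 66cl4 (1.76 ± 0.16, adjusted p = 3.2e-05) and 3.17-fold in 4T1 (1.67, adjusted p = 3.02e-05), and the difference between these lines was -0.09 ± 0.16 (adjusted p = 0.677). Its 2 dimmer probe sets gave higher differences from 67NR, of 2.74 and 3.02 in 66cl4 and 2.39 and 2.67 in 4T1.

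Slc16a3 encodes MCT4, which carries lactate out of the cell, and followed 4T1 alone. Its signals were 6.38, 5.95 and 5.86 in 67NR, 6.53, 7.41 and 6.25 in 66cl4, and 8.24, 8.70 and 7.75 in 4T1 tumours. The 4T1 values lay above all others, 4.49-fold over 67NR (2.17 ± 0.31, adjusted p = 0.00048) and 2.83-fold over 66cl4 (1.50, adjusted p = 0.00391), and 66cl4 was not called against 67NR (0.66, adjusted p = 0.131).

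The bifunctional enzymes that set the level of a sugar phosphate activating phosphofructokinase were not called higher in 4T1 than in 67NR. Pfkfb3 had 8.23, 7.38 and 7.09 in 67NR, 5.90, 6.54 and 6.65 in 66cl4, and 7.02, 7.52 and 7.58 in 4T1 tumours. It was lower in 66cl4 than in 67NR (-1.20 ± 0.30, adjusted p = 0.0119) and higher in 4T1 than in 66cl4 (1.01, adjusted p = 0.0234); the latter missed the threshold without 66cl4 replicate 1, 4T1 replicate 2 or 4T1 replicate 3 (adjusted p between 0.0681 and 0.0861), and a dimmer Pfkfb3 probe set was called in no comparison. Pfkfb4 had means of 7.93, 7.99 and 7.89 in 67NR, 66cl4 and 4T1, and was called in no comparison.

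**Figure D2:**
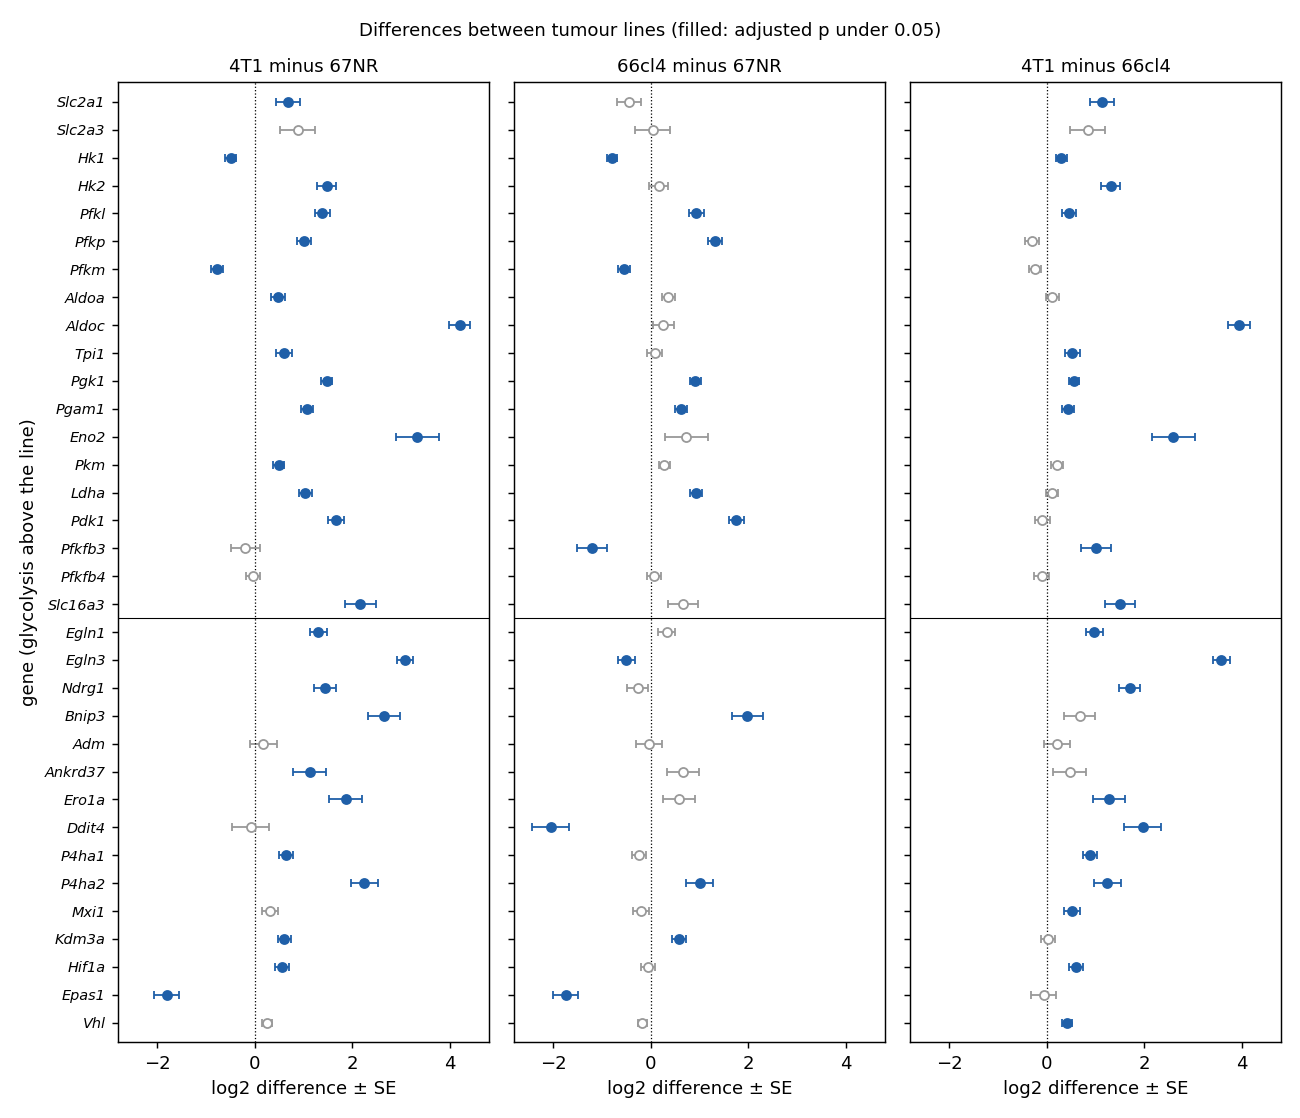
Log2 differences with standard errors (horizontal axis, 3 mice per line) for the 34 members (vertical axis) in each comparison; filled points passed an adjusted p under 0.05. In the panel of 4T1 minus 67NR 24 points are filled to the right of 0 and 3 to the left, in that of 66cl4 minus 67NR 9 and 6, and in that of 4T1 minus 66cl4 21 and 0.

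Of the 12 measured hypoxia-induced genes outside glycolysis, 9 were higher in 4T1 than in 67NR and none was lower by the limma test or at an unadjusted p under 0.05, beside the 39.9% of all genes that passed. The median log2 difference was 1.22. In 66cl4 against 67NR 3 were higher (Bnip3, P4ha2 and Kdm3a) and 2 lower (Ddit4 and Egln3), beside 36.1% of all genes, with a median of 0.15. In 4T1 against 66cl4 8 were higher and none lower, also at an unadjusted p under 0.05, beside 41.3%, with a median of 0.94.

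The prolyl hydroxylase genes of the feedback on HIF were both higher in 4T1. Egln3 had 7.40, 7.53 and 7.92 in 67NR, 7.04, 7.07 and 7.25 in 66cl4, and 10.42, 10.70 and 10.98 in 4T1 tumours. The 4T1 values were 8.47-fold above 67NR (3.08 ± 0.17, adjusted p = 1.03e-06) and 12.0-fold above 66cl4 (3.58, adjusted p = 3.54e-07), and the other Egln3 probe set gave 3.16 and 3.44. All 3 66cl4 values lay below 67NR, but this difference (-0.50, adjusted p = 0.044) missed the threshold without 67NR replicate 2 or 3, any 66cl4 array or 4T1 replicate 2 (adjusted p between 0.0569 and 0.151), and was not called on the other probe set. This difference also missed the threshold with no filter on dim probe sets (adjusted p = 0.0516). Egln1, the main oxygen sensor of the family, had 8.92, 8.73 and 8.69 in 67NR, 8.77, 9.47 and 9.07 in 66cl4, and 9.84, 10.27 and 10.14 in 4T1 tumours. It rose in 4T1 over 67NR by 1.30 ± 0.18 (adjusted p = 0.000365) and over 66cl4 by 0.98 (adjusted p = 0.00193). In 66cl4 it was not called on this probe set (0.32, adjusted p = 0.195) and was called higher than in 67NR on the other (0.85, adjusted p = 0.0077).

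Bnip3, which draws mitochondria into autophagy, was higher than in 67NR in both other lines. Its signals were 9.04, 8.31 and 8.11 in 67NR, 10.20, 11.11 and 10.09 in 66cl4, and 10.71, 11.45 and 11.26 in 4T1 tumours. It was 3.94-fold higher in 66cl4 (1.98 ± 0.32, adjusted p = 0.0011) and 6.29-fold higher in 4T1 (2.65, adjusted p = 0.000156) than in 67NR, and the values of 66cl4 and 4T1 overlapped (0.67, adjusted p = 0.124; called without 66cl4 replicate 2, 0.99, adjusted p = 0.0282). Ddit4, a stress-induced brake on mTOR signalling, showed another order, with 10.63, 10.28 and 10.47 in 67NR, 9.03, 8.58 and 7.60 in 66cl4, and 10.45, 11.01 and 9.66 in 4T1 tumours. The 66cl4 values lay below all others, 4.15-fold under 67NR (-2.05 ± 0.38, adjusted p = 0.00248), and 4T1 was 3.91-fold above 66cl4 (1.97, adjusted p = 0.00266) and overlapped 67NR (-0.09, adjusted p = 0.88).

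The collagen prolyl hydroxylase subunits, which stabilise the collagen helix, differed from each other. P4ha2 had 6.58, 6.15 and 6.30 in 67NR, 7.10, 7.66 and 7.28 in 66cl4, and 7.89, 9.09 and 8.78 in 4T1 tumours. The lines did not overlap, and 4T1 was 4.74-fold above 67NR (2.25 ± 0.28, adjusted p = 0.000189) and 2.37-fold above 66cl4 (1.24, adjusted p = 0.00582). The difference between 66cl4 and 67NR (1.00, adjusted p = 0.0194) missed the threshold without 67NR replicate 2, 67NR replicate 3 or 66cl4 replicate 2 (adjusted p between 0.057 and 0.0722). P4ha1 was higher in 4T1 than in 67NR by 0.64 ± 0.14 (adjusted p = 0.00569) and than in 66cl4 by 0.89 (adjusted p = 0.000885), with 66cl4 at -0.25 from 67NR (adjusted p = 0.21). A dimmer P4ha1 probe set was not called between 4T1 and 67NR (0.26, adjusted p = 0.402) and was called between 4T1 and 66cl4 (0.71, adjusted p = 0.0294).

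Ero1a, an oxidase that forms disulphide bonds in the endoplasmic reticulum, had 8.17, 8.03 and 7.91 in 67NR, 8.41, 9.24 and 8.22 in 66cl4, and 9.14, 10.18 and 10.38 in 4T1 tumours. It rose in 4T1 over 67NR by 1.86 ± 0.33 (adjusted p = 0.00162) and over 66cl4 by 1.28 (adjusted p = 0.012), although 4T1 replicate 1 lay below 66cl4 replicate 2. Ndrg1, a stress-induced gene linked to differentiation and to suppression of spread, had 11.10, 10.53 and 10.26 in 67NR, 10.11, 10.28 and 10.70 in 66cl4, and 11.94, 12.12 and 12.16 in 4T1 tumours. It was 2.71-fold higher in 4T1 than in 67NR (1.44 ± 0.22, adjusted p = 0.000589) and 3.27-fold higher than in 66cl4 (1.71, adjusted p = 0.000205), with 67NR and 66cl4 overlapping. Kdm3a, a histone demethylase, was higher than in 67NR in both 66cl4 (0.58 ± 0.14, adjusted p = 0.00845) and 4T1 (0.61, adjusted p = 0.00583), with 0.02 ± 0.14 between them.

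The remaining 3 moved little or unevenly. Ankrd37 had 7.34, 6.06 and 6.35 in 67NR against 7.67, 7.71 and 7.75 in 4T1, a difference of 1.13 ± 0.34 (adjusted p = 0.0229) that missed the threshold without 67NR replicates 2 or 3 or 4T1 replicates 2 or 3 (adjusted p between 0.0539 and 0.0896). Mxi1, an antagonist of Myc, was on its brightest probe set called higher in 4T1 than in 66cl4 alone (0.52 ± 0.16, adjusted p = 0.0303), and not without any 66cl4 array, 4T1 replicate 2 or 4T1 replicate 3 (adjusted p between 0.0596 and 0.0935). The other Mxi1 probe set was called higher in 4T1 than in 66cl4 (0.50, adjusted p = 0.0168) and lower in 66cl4 than in 67NR (-0.43, adjusted p = 0.0397). Adm, which encodes the vasodilator adrenomedullin and is a common marker of hypoxia, had means of 8.91 ± 0.37 in 67NR, 8.88 ± 0.22 in 66cl4 and 9.09 ± 0.55 in 4T1 (SD, n = 3), and was called in no comparison on either of its probe sets.

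**Figure D3:**
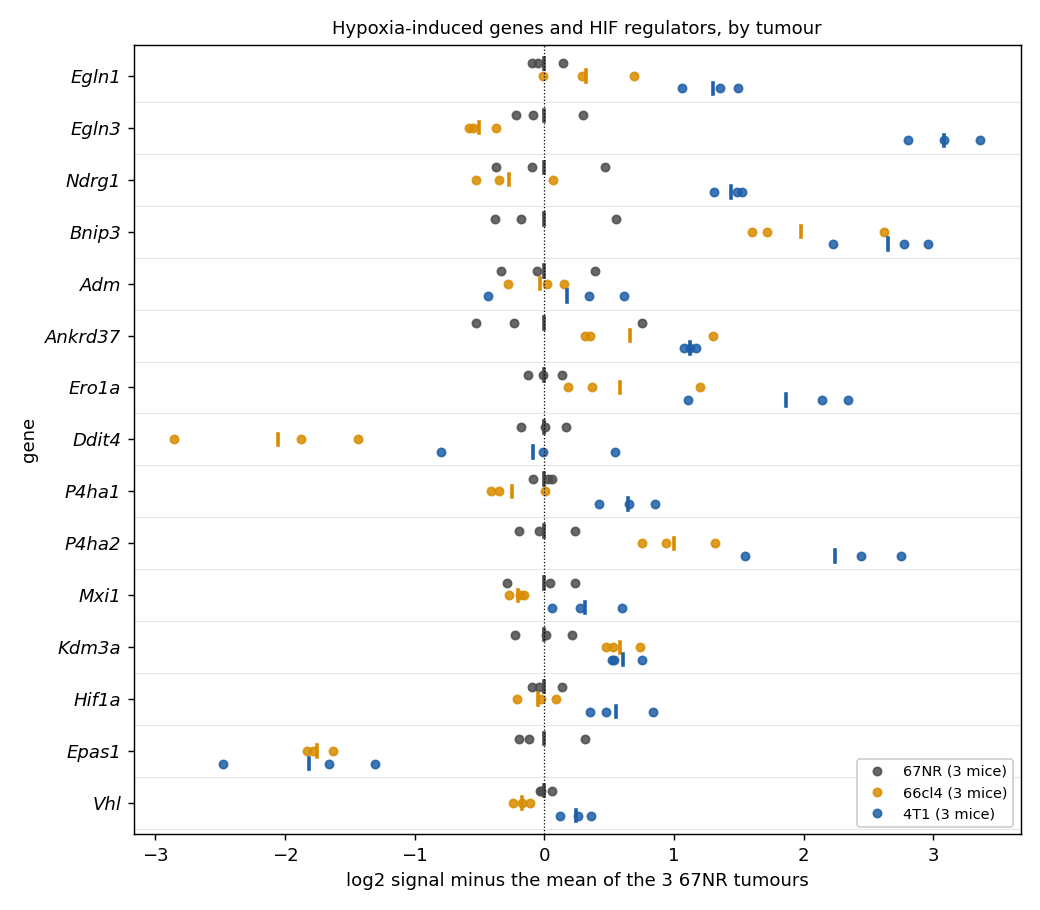
Each point is 1 tumour, placed by its log2 signal minus the mean of the 3 67NR tumours (horizontal axis), for the 12 hypoxia-induced genes and Hif1a, Epas1 and Vhl (vertical axis); short bars are line means. Egln3 lies near 3 in 4T1 alone, Bnip3 is to the right in both other lines, Ddit4 is to the left in 66cl4 alone, and Epas1 is to the left in 66cl4 and 4T1.

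The alpha subunit genes went apart. Hif1a had 10.90, 10.73 and 10.67 in 67NR, 10.56, 10.74 and 10.85 in 66cl4, and 11.12, 11.61 and 11.25 in 4T1 tumours. The 4T1 values lay above all others, by 0.56 ± 0.14 over 67NR (adjusted p = 0.0118) and 0.60 over 66cl4 (adjusted p = 0.00784). Of its 3 other probe sets 1, near background, was called higher in 4T1 than in 67NR (0.79), and the others were not (0.21 and 0.13). Vhl was higher in 4T1 than in 66cl4 by 0.42 ± 0.10 (adjusted p = 0.00742), and was not called against 67NR in 4T1 (0.25, adjusted p = 0.0733) or 66cl4 (-0.17, adjusted p = 0.209). A dimmer Vhl probe set was not called between 4T1 and 66cl4 (0.18, adjusted p = 0.384).

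Epas1, which encodes HIF-2 alpha and is known for strong expression in endothelium, had 10.89, 10.46 and 10.38 in 67NR, 8.74, 8.79 and 8.95 in 66cl4, and 8.10, 9.27 and 8.92 in 4T1 tumours. The 67NR values lay above all others, and Epas1 was 3.36-fold lower in 66cl4 (-1.75 ± 0.26, adjusted p = 0.000695) and 3.52-fold lower in 4T1 (-1.81, adjusted p = 0.000462). Its dimmer probe set differed in the same direction without passing (-0.68, adjusted p = 0.0546, and -0.66, adjusted p = 0.0534). All 8 endothelial marker genes were lower than in 67NR in both lines as well, with medians of -1.85 in 66cl4 and -1.46 in 4T1, and Cdh5, the junction cadherin of endothelium, fell by 2.26 and by 2.11 on the log2 scale. The log2 of the summed signal of the 8 markers ran from 12.27 to 12.92 in 67NR, 10.26 to 10.63 in 66cl4 and 10.83 to 11.05 in 4T1 tumours, and all 8 were above background in every line. The part of endothelial cells in the Epas1 difference was not tested. In bulk tissue, fewer cells of a type and less RNA per cell cannot be told apart.

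**Figure D4:**
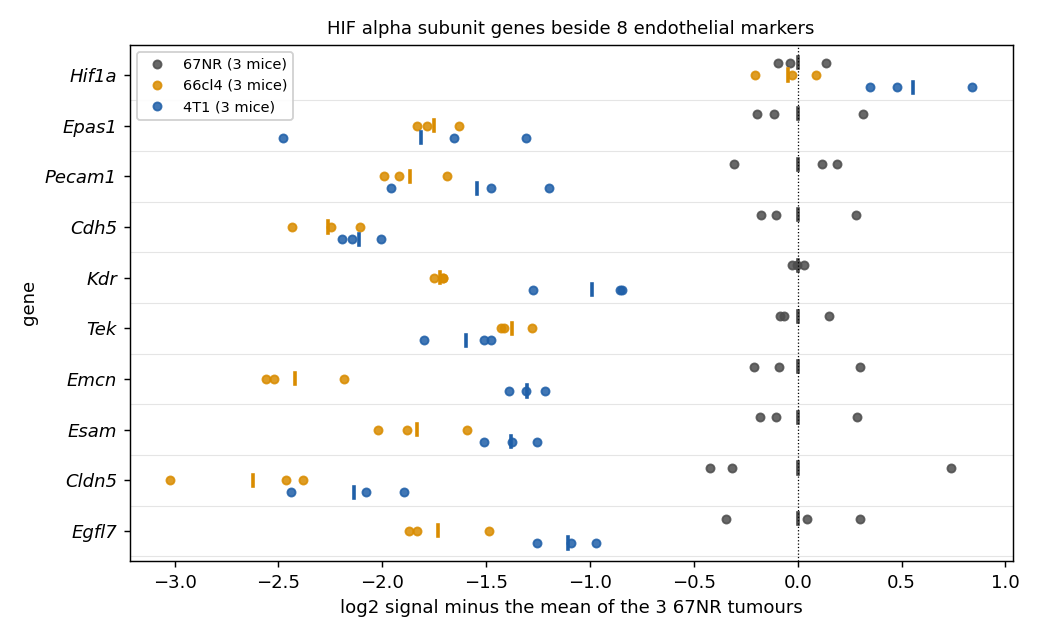
Log2 signal minus the mean of the 3 67NR tumours (horizontal axis) for Hif1a, Epas1 and 8 endothelial markers (vertical axis); each point is 1 tumour and short bars are line means. Epas1 and all 8 markers lie left of 67NR in every 66cl4 and 4T1 tumour, whereas Hif1a lies to the right in 4T1.

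Across the 3 comparisons the members fell into a few patterns. In 9 genes both 66cl4 and 4T1 were higher than 67NR (Pfkl, Pfkp, Pgk1, Pgam1, Ldha, Pdk1, Bnip3, P4ha2 and Kdm3a), which is 26.5% of the members beside 8.29% of all genes tested, and 4 of these were higher still in 4T1 (11.8% beside 1.52%). In 15 genes 4T1 was higher than 67NR with no such call in 66cl4 (44.1% beside 11.1%), and for 12 of them the difference between 4T1 and 66cl4 was itself called (35.3% beside 8.72%); for Aldoa, Pkm and Ankrd37 it was not, so these are not shown to differ between the lines. The 12 were Slc2a1, Hk2, Aldoc, Tpi1, Eno2, Slc16a3, Egln1, Egln3, Ndrg1, Ero1a, P4ha1 and Hif1a. In 4 genes 66cl4 was lower than both other lines (Hk1, Pfkfb3, Egln3 and Ddit4), which is 11.8% beside 7.0% of all genes. Slc2a3, Pfkfb4 and Adm were called in none (8.82% beside 38.7%). The comparisons share arrays, so these shares are a description with no test.

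Other genes of the pathways came from lists that were also written with earlier results known. Of 17 further glycolysis and carrier genes tested, 5 were higher and 3 lower in 4T1 than in 67NR (47.1% called, beside 39.9% of all genes), 4 and 1 in 66cl4 than in 67NR (29.4% beside 36.1%), and 2 and 3 in 4T1 than in 66cl4 (29.4% beside 41.3%), shares near or below those of all genes. Slc16a1, encoding the lactate carrier MCT1, was higher in both, by 1.20 ± 0.24 in 4T1 (adjusted p = 0.0027) and 1.41 in 66cl4 (adjusted p = 0.00131). Eno3, the muscle enolase, was highest in 66cl4, 1.54 ± 0.14 above 67NR (adjusted p = 3.83e-05), with 4T1 0.93 above 67NR (adjusted p = 0.000611). Ldhb, the lactate dehydrogenase subunit that favours pyruvate, was lower in 66cl4 than in 67NR (-0.78 ± 0.16, adjusted p = 0.00474), and 4T1 was 1.09 above 66cl4 (adjusted p = 0.000586). Slc2a8, a carrier found on internal membranes, was lower in 4T1 than in 67NR (-0.65 ± 0.11, adjusted p = 0.00136).

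Of 9 tested genes around the entry of pyruvate into mitochondria, 4 were higher and 3 lower in 4T1 than in 67NR (77.8% called, beside 39.9% of all genes), and 5 higher and none lower by the limma test in 66cl4 than in 67NR (55.6% beside 36.1%; 6 and 0 at an unadjusted p under 0.05). In 4T1 against 66cl4 5 were lower and none higher (55.6% beside 41.3%), with the same counts unadjusted. Pdk3 rose beside Pdk1, by 1.18 ± 0.11 in 4T1 (adjusted p = 2.42e-05) and 1.10 in 66cl4 (adjusted p = 5.6e-05), whereas Pdk2 was lower in 4T1 (-0.56 ± 0.13, adjusted p = 0.00554). Pdha1, a subunit of pyruvate dehydrogenase, which these kinases inactivate, was also higher in both, by 0.96 ± 0.12 in 4T1 (adjusted p = 0.000177) and 0.79 in 66cl4 (adjusted p = 0.000718). Its partner Pdhb was higher by 0.30 in 4T1 (adjusted p = 0.0259) and 0.59 in 66cl4 (adjusted p = 0.000868).

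The machinery around HIF, 12 further genes, was higher for 1 and lower for 2 in 4T1 against 67NR, higher for 4 and lower for none in 66cl4 against 67NR (5 and 1 at an unadjusted p under 0.05), and lower for 5 and higher for none in 4T1 against 66cl4 by the limma test and unadjusted. The shares called, 25.0%, 33.3% and 41.7%, lay below or near the 39.9%, 36.1% and 41.3% of all genes. Arnt, the partner of both alpha subunits, was lower in 4T1 (-0.40 ± 0.10, adjusted p = 0.0129) and higher in 66cl4 (0.39, adjusted p = 0.0151) than in 67NR. Hif1an, an asparagine hydroxylase that blunts HIF activity, was highest in 66cl4, 1.51 ± 0.12 above 67NR (adjusted p = 1.54e-05), and 4T1 lay below 66cl4 (-0.86, adjusted p = 0.000337). The coactivator genes Crebbp and Ep300 were lower in 4T1 than in 66cl4 (-0.98 and -0.56, adjusted p = 0.00028 and 0.00178).

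Among 28 further tested hypoxia targets, 13 were higher and 2 lower in 4T1 than in 67NR, 10 and 4 in 66cl4 than in 67NR, and 7 and 4 in 4T1 than in 66cl4. The shares called were 53.6%, 50.0% and 39.3%, beside 39.9%, 36.1% and 41.3% of all genes. Car9, a carbonic anhydrase at the cell surface widely used to mark hypoxic tumour cells, had 5.97, 5.21 and 5.10 in 67NR, 10.21, 10.76 and 9.99 in 66cl4, and 9.98, 10.12 and 10.43 in 4T1 tumours. It was 4.89 ± 0.26 above 67NR in 66cl4 (adjusted p = 1.73e-06) and 4.75 above it in 4T1 (adjusted p = 8.95e-07), with -0.14 between 4T1 and 66cl4 (adjusted p = 0.704). Ak4, a mitochondrial adenylate kinase, was not above background in 67NR and at least 6.23-fold higher in 66cl4 and at least 10.5-fold higher in 4T1. Car12, a relative of Car9, was above background in 4T1 alone, at least 7.1-fold higher than in 67NR. Like Eno2, it passed the filter for testing only through its 4T1 signals. Ppp1r3c, which targets a phosphatase to glycogen, was seen in 66cl4 alone, at least 9.72-fold above 67NR, and at background in the other lines. These bounds are taken against background as for Eno2.

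Tumours of 1 line also differed in the level of the whole set. In 67NR, replicate 1 was the highest of its line for 24 of the 34 members, against 36.0% of all genes tested, and lay above its line's mean for 30 of them. In 66cl4, replicate 2 was the highest for 25 members, against 35.3% of all genes, and above the mean for 30. In 4T1, replicate 1 lay above the mean for only 7 members, against 55.2% of all genes, with a median deviation of -0.22. The replicate numbers have no order and no shared source, and members that move together in a tumour are not independent readings of it.

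**Figure D5:**
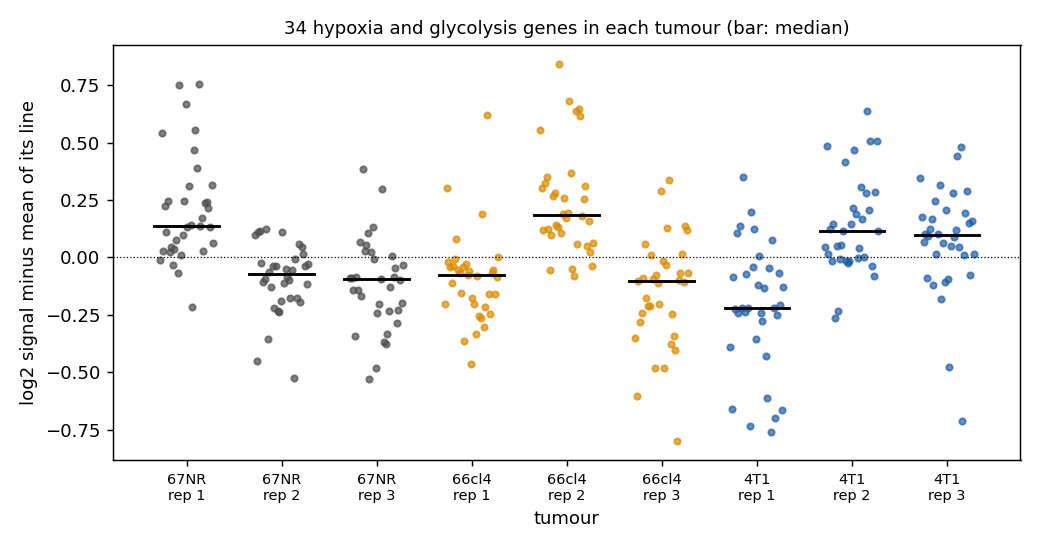
Log2 signal of each of the 34 members minus the mean of its line (vertical axis) in each of the 9 tumours (horizontal axis); points are genes and bars their medians. The median is 0.14 in 67NR replicate 1, 0.18 in 66cl4 replicate 2 and -0.22 in 4T1 replicate 1, and nearer to 0 in the others.

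Markers of other cell types and array quality measures differed between the lines as well. Epithelial markers were higher in 4T1 for 6 of 7 against either other line, and for 1 of 7 (Krt8) in 66cl4 against 67NR, with a median of 0.18. Krt7 and Cdh1 were not above background in 67NR or 66cl4. The log2 of their summed signal, which in 66cl4 rests on Krt8 (mean 13.01, against 6.74 in 67NR), ran from 8.50 to 8.72 in 67NR, 12.85 to 13.21 in 66cl4 and 14.62 to 14.82 in 4T1 tumours. Macrophage markers were lower in 4T1 for 7 of 8 against 67NR and 8 of 8 against 66cl4 (summed signal 15.27 to 15.41, 15.52 to 15.82 and 14.17 to 14.38), and neutrophil markers higher in 4T1 for 3 and 4 of 7 (10.37 to 11.41, 9.73 to 11.09 and 11.80 to 12.38). The T and NK cell markers were lower than in 67NR for 6 of 6 in 66cl4 and 3 of 6 in 4T1, and of 6 fibroblast markers 3 were higher and 2 lower in 4T1, and 3 higher and 1 lower in 66cl4. Of 2 tested adipocyte markers 1 was lower in both, of 7 skeletal muscle markers 1 was higher and 1 lower in both, and the 1 tested nerve marker was not called against 67NR in either. The red cell markers Hba-a1 and Slc4a1 were not above background in any line, and the 1 tested red cell marker was lower in 4T1 than in 67NR. The part of these cell types in the glycolysis and hypoxia results was not tested. The spiked hybridization controls averaged 11.16 ± 0.30 in 67NR, 10.86 ± 0.23 in 66cl4 and 10.46 ± 0.22 in 4T1 (SD, n = 3), and the number in the scan file names was higher for every 67NR array than for any other. With either as a covariate the members called between 4T1 and 67NR went from 16 to 11 for glycolysis, and from 9 to 5 (scan number) or 4 (controls) for hypoxia-induced genes. The covariates follow the lines closely, so that line and covariate are told apart poorly.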

How the data were processed

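Expression in 9 microdissected tumours, 3 mice for each of 3 lines, was read from log2 values per probe set as the authors deposited them, 45101 on each array. The log2 scale was inferred from their range (2.42 to 14.8), with the summary and normalization methods not given in the sources used here. Array 75th percentiles lay within 0.155 of each other, under a limit of 0.5 set for adding a normalization, so none was added. Of the probe sets, 34958 had 1 gene symbol, 932 several and 9211 none here, and 34754 of the first were updated through RefSeq GRCm38.p6. Each gene took its brightest probe set, and genes above the 40th percentile of an array on at least 3 arrays were tested, 13410 of 18194, which leaves out 4784.

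Differences were fitted with limma 3.58.1 in R 4.3.3 (lmFit, eBayes, group means over all 9 arrays, 6 residual and 3.63 prior degrees of freedom), two-sided, with Benjamini-Hochberg adjustment over all genes tested and a threshold of 0.05. Further probe sets of a gene were read from a second limma fit, of all probe sets passing the same filter, with adjustment over those. There the brightest probe sets of Slc2a1 (4T1 against 67NR, adjusted p = 0.0504), Egln3 (66cl4 against 67NR, 0.0507) and Hk1 (4T1 against 66cl4, 0.0622) were not called. The number of arrays limits the precision, and no read depth applies: an exact permutation test of 3 against 3 cannot go below p = 0.1. On simulated data for 4T1 against 67NR, over 13410 genes, the fit called 81 of 100 genes changed by 1 on the log2 scale and 97 of 100 changed by 2. No other genes were changed there, whereas 39.9% of genes were called in the real comparison. The adjustment was therefore stricter in the simulation, and these rates check the fit without giving its power in the real data. Background was the highest of 27 bacterial control probe sets on each array. Promoter windows came from RefSeq.

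The members and all other gene lists (further glycolysis genes, pyruvate entry, HIF machinery, further hypoxia targets, and markers of epithelial, endothelial, macrophage, neutrophil, T and NK, fibroblast, adipocyte, muscle, red and nerve cells) were chosen with earlier results of these data known. Named are all members, the cell type markers, and of each other list the 4 tested genes with the smallest F-test p over the lines. Alternatives were quantile normalization, no filter, other probe set rules, only the lines compared, a variance trend, scan number or hybridization controls as a covariate, the replicate number as a block, and leaving out each array. Replicate numbers were not taken to pair tumours: deviations of same-numbered tumours correlated at -0.11 to 0.16 across genes.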

Additional observations from a re-analysis of the deposited data

How the results depend on the processing

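No called difference of a member changed direction under any alternative. Of the 102 differences of members, 14 that were not called changed sign under at least 1 alternative, none of them called with the other sign, and at most 0.21 in size. Called members that stayed called under every alternative that tested them numbered 16 of 27 between 4T1 and 67NR, 10 of 15 between 66cl4 and 67NR and 13 of 21 between 4T1 and 66cl4. Aldoc counts among the 16 and the 13, although it was not tested when probe sets that can read related transcripts were passed over. The scan number as a covariate lowered the genes called between 4T1 and 67NR from 5348 to 2661 and the hybridization controls to 2151, and the hypoxia-induced members from 9 to 5 and 4. The scan number left 2 of 5 hypoxia-induced members between 66cl4 and 67NR, and the hybridization controls 7 of 11 glycolysis members between 4T1 and 66cl4. Between 4T1 and 67NR, Slc2a1, Hk1, Aldoa, Tpi1, Pkm, Ankrd37, Ero1a, P4ha1 and Kdm3a lost their calls with either covariate, and Ndrg1 (1.28, adjusted p = 0.055) and Hif1a (0.76, adjusted p = 0.0709) with the controls alone. Between 4T1 and 66cl4, Hk1, Pfkl, Tpi1 and Mxi1 lost theirs with either, and Pfkfb3 and Ero1a with the controls alone. Between 66cl4 and 67NR, Egln3 lost its call with either, and Pfkfb3, P4ha2 and Kdm3a with the scan number alone. The cause was not tested.

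Leaving out each array in turn gave 3 to 6 hypoxia-induced members between 66cl4 and 67NR (3 without 67NR replicate 2, 67NR replicate 3 or 66cl4 replicate 2) and 6 to 11 glycolysis members between 4T1 and 66cl4 (6 without 66cl4 replicate 1 or 4T1 replicate 2, 7 without 66cl4 replicate 3). Between 4T1 and 67NR it gave 14 to 17 glycolysis and 8 to 9 hypoxia-induced members. Another rule took probe sets that can read related transcripts only for genes with no other type. Hif1a was then no longer called between 4T1 and 67NR (0.21, adjusted p = 0.521) or 66cl4 (0.52, adjusted p = 0.104). Pfkl was no longer called between 66cl4 and 67NR (0.30, adjusted p = 0.279). Hk1 has no other type, so its signals stayed the same. Only its adjusted p between 4T1 and 66cl4 moved past the threshold (0.30, adjusted p = 0.0529). With probe sets averaged, P4ha1 between 4T1 and 67NR (0.45, adjusted p = 0.0569), Egln3 between 66cl4 and 67NR (-0.39, adjusted p = 0.132) and Pfkfb3 between 4T1 and 66cl4 (0.55, adjusted p = 0.0519) lost their calls, and Egln1 between 66cl4 and 67NR gained one (0.58, adjusted p = 0.0165). Calls gained on leaving out 1 array, beside those of Slc2a3 and Bnip3 above, were Slc2a1 (-0.73 without 66cl4 replicate 2), Aldoa (0.45 without 66cl4 replicate 3, 0.36 without 4T1 replicate 1) and Ankrd37 (1.04 without 67NR replicate 1) between 66cl4 and 67NR, and Vhl (0.31 without 4T1 replicate 1) between 4T1 and 67NR. Between 66cl4 and 67NR, Pkm gained a call with quantile normalization (0.33, adjusted p = 0.0449). Pkm and Aldoa gained one with only the lines compared (0.28, adjusted p = 0.0468, and 0.36, adjusted p = 0.0498). Both also did with a variance trend (adjusted p = 0.0433 and 0.0418). With only the lines compared, Hk1, Pfkl and Tpi1 lost their calls between 4T1 and 66cl4 (adjusted p = 0.0678, 0.0707 and 0.0537). The glycolysis members called there went from 11 to 8. With the replicate number as a block, 5058, 4504 and 5180 genes were called between 4T1 and 67NR, 66cl4 and 67NR, and 4T1 and 66cl4, with 16, 9 and 10 glycolysis and 9, 5 and 7 hypoxia-induced members; Hk1 and Mxi1 between 4T1 and 66cl4 lost their calls, and no other member did.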
